A study of Homo sapiens with 26 samples.

Results

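The libraries described here are 4 ribosome footprint libraries of K562 cells: 2 prepared with the FastSelect reagent against ribosomal RNA (rRNA) and 2 from which no rRNA was removed. They were taken by the column names of the K562 kit table, and they are 4 of the 26 libraries of a series that covers 3 human cell lines in 4 count tables. K562 is an established line from a chronic myeloid leukaemia that expresses embryonic and fetal globins. All 4 libraries come from K562 cells, with no treatment labelled, grown in RPMI with serum, lysed with cycloheximide and digested with RNase I, with fragments of 20 to 34 nt selected on a gel. The FastSelect group received FastSelect and the undepleted group did not, and the labels name no other difference between the groups. The same table holds 2 riboPools libraries, 2 riboPools libraries with cold elution and 4 single Ribo-Zero Plus libraries. By its title, the series asks whether depletion by a nuclease biases footprint libraries, and FastSelect is a method that uses none.

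Ribosome profiling sequences the short mRNA fragments that ribosomes shield from a nuclease, so that the count on a coding sequence reflects how many ribosomes sat on it. The same digestion cuts the ribosome's own RNA into fragments of similar size, and these make up much of an untreated library. FastSelect oligonucleotides bind rRNA and block its reverse transcription, so rRNA stays in the tube but is not copied into DNA. riboPools probes pull rRNA out of the sample on beads, and Ribo-Zero Plus digests rRNA that has hybridised to DNA probes.

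Counts on coding sequences summed to 1135460 and 1031889 in the undepleted libraries and to 2505839 and 2911759 in the FastSelect libraries. Of 19478 coding sequences in the table, 8104 and 7918 held at least 10 counts in the undepleted libraries and 9354 and 9576 in the FastSelect libraries. The 10 most abundant genes took between 6.19% and 6.24% of the counts in all 4 libraries. Replicate pairs differed slightly more than counting alone gives, with a chi-square per degree of freedom of 1.05 for the undepleted pair and 1.12 for the FastSelect pair. The labels do not say whether replicates are separate cultures, so p-values measure only the spread between these libraries, which may be technical. All 12 K562 markers checked (such as HBG1, GATA1 and TFRC) were above 3 counts in each of the 4 libraries. Their summed level was 12960 and 12560 counts per 1000000 coding counts of the library (CPM) in the undepleted libraries and 12990 and 13190 CPM in the FastSelect libraries. Markers of other cell types summed to between 133.9 and 149.2 CPM, and 16 of 20, among them CD14, ALB and CDH5, had at most 10 counts in every library. In bulk libraries, fewer cells of a type and less RNA per cell cannot be told apart.

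FastSelect and undepleted libraries differed in the footprint counts of 2 genes of 8991 tested. KCNH8 rose 10.2-fold and ABCA13 fell to 0.551 of its undepleted level on the CPM scale. KCNH8 encodes a voltage-gated potassium channel of the ether-a-go-go family, best known from the nervous system. ABCA13 encodes a very large transporter of the ATP-binding cassette A subfamily, whose members are known for moving lipids. The 2 genes are 0.0222% of those tested (edgeR quasi-likelihood test, adjusted p under 0.05), with 1 in each direction (0.0111% higher and 0.0111% lower). At an unadjusted p under 0.05 there were 457 genes, or 5.08%.

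KCNH8 was counted 32 and 45 times in the undepleted libraries and 877 and 1121 times in the FastSelect libraries. This came to 28.2 and 43.6 CPM undepleted (35.9 ± 10.9, SD, n = 2) and to 350.0 and 385.0 CPM with FastSelect (367.5 ± 24.8, SD, n = 2). Both FastSelect libraries lay far above both undepleted ones, and the gene moved from rank 5135 and 3932 within the undepleted libraries to rank 530 and 469 within the FastSelect libraries. The log2 fold change was 3.37 ± 0.12 (SE), with an adjusted p of 1.19e-26 by edgeR's quasi-likelihood test. With each library left out in turn it lay between 3.07 and 3.70, and the call was kept in every setting tried. The gene lies on the plus strand of chromosome 3 at 19148454 to 19535646 (GRCh38, transcript ENST00000328405.6 of GENCODE 29), and its coding sequence is 3321 bases long with 45.6% GC.

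ABCA13 was counted 83 and 64 times in the undepleted libraries and 91 and 111 times in the FastSelect libraries, which are more than 2 times as deep. Its level was 73.1 and 62.0 CPM undepleted (67.6 ± 7.83, SD, n = 2) and 36.3 and 38.1 CPM with FastSelect (37.2 ± 1.28, SD, n = 2). The groups did not overlap, and the lowest undepleted library was well above both FastSelect libraries. The log2 fold change was -0.86 ± 0.16 (SE), with an adjusted p of 0.0108 by edgeR. This call was less firm than that of KCNH8. Without undepleted replicate 1 the value was -0.74 and the adjusted p 0.649, and DESeq2 gave -0.86 with an unadjusted p of 0.0011 and an adjusted p of 1.0. ABCA13 lies on the plus strand of chromosome 7 at 48171460 to 48647495 (transcript ENST00000435803.5), with a coding sequence of 15174 bases and 41.8% GC.

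**Figure D1:**
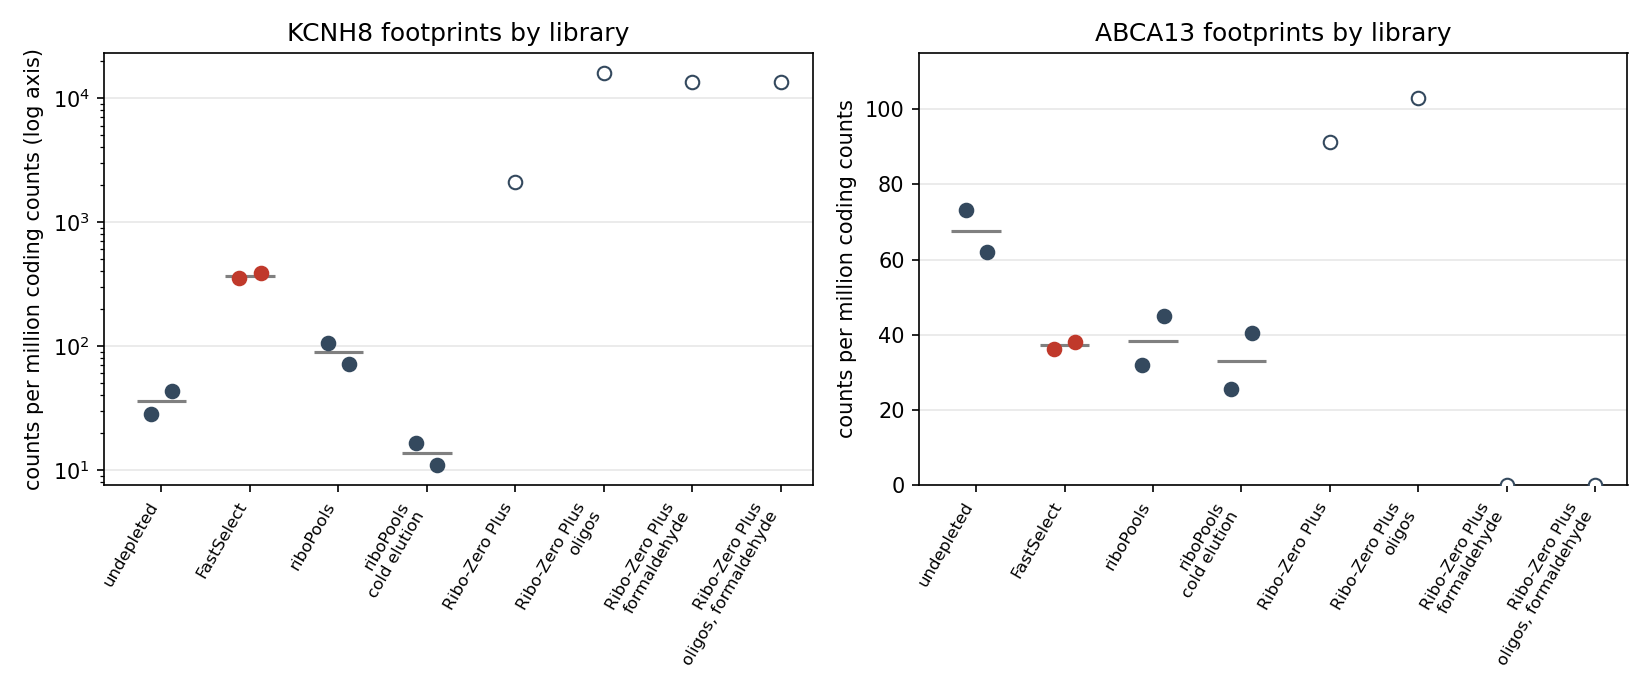
Level of KCNH8 (left, log axis) and ABCA13 (right, axis from 0) in each library of the K562 kit table, in CPM. Points are libraries, bars are means of 2 libraries, red marks FastSelect and open points are the single Ribo-Zero Plus libraries, which entered no test; KCNH8 was at 350.0 and 385.0 with FastSelect against 28.2 and 43.6 undepleted, and ABCA13 at 36.3 and 38.1 against 73.1 and 62.0.

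Counts are given per whole coding sequence, so the place of the added KCNH8 footprints within the gene is not known from these files. The coding sequences themselves were read for stretches that could set the gene apart, and these are printed because they are what a reader would check first. The longest unbroken run of purines (A or G, coding strand) in KCNH8 is 34 bases. It lies in coding exon 13 of 16, at coding bases 2137 to 2170. The search for purine runs was chosen after the sequence had been seen. With 15 flanking bases on each side, within chr3:19513012-19513075 (GRCh38, plus strand) and chr7:48524285-48524333 (GRCh38, plus strand, coding exon 54 of 62), capitals marking the run, the longest purine runs of both genes read as follows.
KCNH8 purine run: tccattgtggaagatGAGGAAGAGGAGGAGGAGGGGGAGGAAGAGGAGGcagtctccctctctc
ABCA13 purine run: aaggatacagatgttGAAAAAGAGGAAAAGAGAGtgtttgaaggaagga

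A purine run at least as long as that of KCNH8 is present in 184 coding sequences, or 0.971% of those matched to GENCODE 29, where the median longest run is 12 bases. Of the other tested genes, 105 carry one. Their median log2 fold change was -0.0048, and they ranged from -0.42 to 0.67. None of these 105 was called by edgeR or DESeq2, which at 0.0222% called over all genes says nothing about them. The run in ABCA13 is 19 bases, and 10.7% of coding sequences have one at least as long. These shares are over coding sequences of all lengths. Whether reads from the run make up the added KCNH8 counts was not tested.

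FastSelect is directed at rRNA, so the coding sequences were also compared with rRNA for shared exact runs on either strand. The rRNA compared was 5S (119 bases), 5.8S (153 bases), 923 bases of 18S, and the mitochondrial 12S (954 bases) and 16S (1559 bases). 28S and the rest of 18S were not used here. The longest run of KCNH8 was 14 bases, shared with the sense strand of 12S, and 3.63% of coding sequences have one at least as long. The longest run of ABCA13 was 13 bases, shared with the opposite strand of 12S, which 13.3% of coding sequences reach. The runs come from chr3:19515332-19515369 (coding exon 14) and chr7:48234072-48234108 (coding exon 8), with the shared bases in capitals and 12 flanking bases on each side.
KCNH8 run shared with 12S rRNA: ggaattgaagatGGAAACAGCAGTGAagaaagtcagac
ABCA13 run shared with 12S rRNA: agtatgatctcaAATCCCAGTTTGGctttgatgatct

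The median longest run of all coding sequences is 11 bases, so both runs are longer than that. A longer sequence has more places for a match, and both coding sequences are long (3321 and 15174 bases). Runs were not compared among coding sequences of like length. A run of at least 16 bases was found in 19 tested genes, whose median log2 fold change was -0.0331. None of the 19 was called by edgeR or DESeq2, which at 0.0222% called over all genes says nothing about them. At 18 bases or more only 1 tested gene was left, so the genes most like these rRNAs could not be examined as a group.

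KCNH8 belongs to a family of 8 channel genes, and reads from a close copy could be counted for the wrong member. The longest stretch that KCNH8 shares with another member is 47 bases, with KCNH4, and KCNH4 had 1 and 0 counts in the undepleted and 3 and 4 in the FastSelect libraries. KCNH2, the cardiac channel of the family, shares 21 bases and was the one other member with enough counts to test. It was at 112.7 and 125.0 CPM undepleted and at 107.7 and 119.2 CPM with FastSelect, overlapping ranges with a log2 fold change of -0.06 ± 0.11 (SE). KCNH3 had 0 and 0 counts undepleted and 1 and 0 with FastSelect. The rise was thus seen in KCNH8 and not in KCNH2, and each of the others had at most 11 counts in any of the 4 libraries. ABCA13 shares at most 29 bases with another ABCA gene, ABCA3, which had 16 and 17 counts undepleted and 40 and 51 with FastSelect.

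Both genes can be followed through the other kits of the table, although FastSelect libraries are common to the comparisons below. KCNH8 was at 106.0 and 71.5 CPM in the riboPools libraries and at 16.5 and 10.9 CPM in those with cold elution. FastSelect exceeded riboPools by 2.09 on the log2 scale (95% interval 1.95 to 2.22) and cold elution by 4.75 (4.59 to 4.91), both called by edgeR. ABCA13 was at 31.9 and 45.0 CPM with riboPools and at 25.5 and 40.6 CPM with cold elution. Both ranges overlap the FastSelect values, with differences of -0.07 (-0.36 to 0.22) and 0.18 (-0.08 to 0.43). The first was -0.27 without riboPools replicate 1 and 0.23 without replicate 2. The second was -0.12 without cold elution replicate 1 and 0.55 without replicate 2. ABCA13 was thus highest in the undepleted libraries among these 4 groups, while KCNH8 was highest with FastSelect. KCNH8 was higher still in every Ribo-Zero Plus library, at 2113 CPM or more. In the single Ribo-Zero Plus libraries, which entered no test, ABCA13 was at 91.3 CPM (168 counts) with the kit alone. It was at 102.9 CPM (19 counts) with added oligos, and had 0 counts with formaldehyde and with oligos and formaldehyde. These zeros allowed up to 31.6 and 22.3 CPM (95% exact binomial limits).

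Across all genes the FastSelect and undepleted libraries were close. Of the 8991 genes tested, 4545 (50.6%) had a log2 fold change above 0 and 4446 (49.4%) below 0, and the median was 0.0034. Of the 3447 genes averaging 100 counts or more over the 4 libraries, 91.9% lay within 0.2 of 0 on the log2 scale, and 1 gene, KCNH8, exceeded 0.5 in either direction. Of the 729 genes averaging 500 counts or more, 99.6% lay within 0.2, and the median standard error of a log2 fold change was 0.057. For genes under 100 counts it was 0.267, so the smaller differences in those genes were less precisely measured. Both FastSelect libraries lay above both undepleted ones in 1607 genes (17.9%) and below both in 1555 (17.3%).

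**Figure D2:**
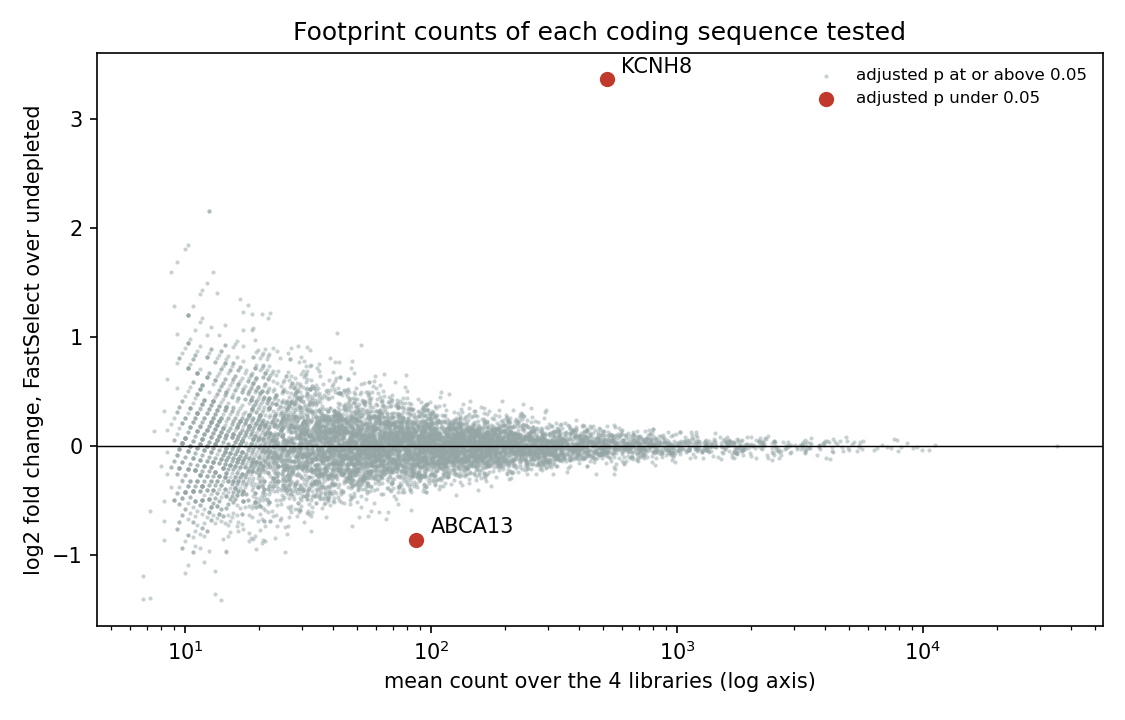
Log2 fold change of FastSelect over undepleted against the mean count over the 4 libraries (log axis) for the 8991 coding sequences tested. Red points are the 2 genes with an adjusted p under 0.05; KCNH8 stands alone above 3 among well-counted genes, and the scatter narrows around 0 as counts rise.

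How far 2 libraries stood apart was taken from the log2 ratio of each gene, as the SD of these ratios after subtracting the variance expected from counting, in genes averaging 100 counts or more. This distance was 0.039 between the undepleted replicates, 0.041 between the FastSelect replicates and 0.071 ± 0.0068 (SD over 4 pairs, which share libraries) between FastSelect and undepleted. KCNH8 alone gave 11.4% of the sum of squares of the 4 pairs and 65.4% of what exceeded counting. No other gene gave more than 0.246% of the sum of squares. Without KCNH8 the distance between the groups was 0.042 ± 0.0065, against 0.038 and 0.041 within them. By this measure, FastSelect libraries lay about as far from undepleted ones as replicates from each other once that gene was set aside.

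The same held within ranges of gene level. In genes with a mean of 100 to 500 counts, the distance was 0.043 between groups against 0.042 within each group. In genes of at least 500 counts it was 0.131 between groups and 0.036 without KCNH8, against 0.0195 and 0.0375 within the undepleted and FastSelect groups without it. In genes of 20 to 100 counts it was 0.097, between the values within the undepleted (0.107) and FastSelect (0.076) groups.

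**Figure D3:**
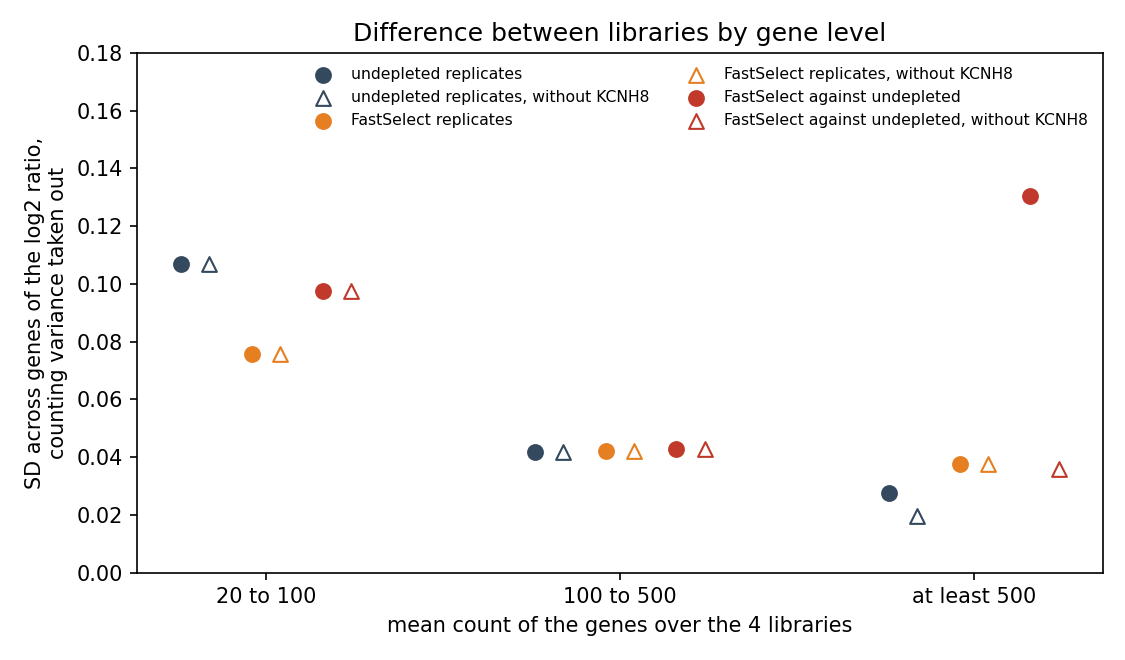
Distance between 2 libraries (SD of gene log2 ratios, less counting variance) by the mean count of the genes. Circles include KCNH8 and open triangles leave it out; values between FastSelect and undepleted are means of 4 pairs, and the circle at 0.131 drops to 0.036 without KCNH8.

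GC content and length of the coding sequence showed no trend in the fold changes. With the 8767 tested genes that had a matched coding sequence cut into 5 equal groups, the median log2 fold change lay between -0.00064 and 0.0103 by GC content and between -0.0022 and 0.0119 by length. With all tested genes cut by mean count it lay between -0.0012 and 0.0102. KCNH8 and ABCA13 were both in the group with the longest coding sequences (2457 bases and more). The groups at the ends of the GC scale, from 32.3% to 43.3% and from 60.2% to 78.4%, had medians of 0.0082 and 0.0103.

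The genes with the next largest differences did not pass the test. After KCNH8, the 7 largest positive differences in genes averaging 100 counts or more, with separate groups, ranged in log2 fold change from 0.38 (RNF5, a ubiquitin ligase of the endoplasmic reticulum) to 0.49 (MRPL54, a protein of the mitochondrial ribosome). MRPL54 was at 44.9 and 44.6 CPM undepleted and at 59.5 and 66.3 CPM with FastSelect. DDX52, an RNA helicase of ribosome assembly, was at 93.4 and 71.7 against 112.1 and 108.9 CPM. The others of these were SFT2D2, CCDC137, TMEM109 and NOL6. The 8 largest negative differences ranged from -0.45 (STMN3, a microtubule-binding stathmin) to -0.36 (UBE2O, a ubiquitin-conjugating enzyme). STMN3 was at 86.3 and 78.5 CPM undepleted and at 55.5 and 64.6 CPM with FastSelect. POLA1, the catalytic subunit of DNA polymerase alpha, was at 114.5 and 106.6 against 88.2 and 83.8 CPM. The others were TGOLN2, ALKBH7, FRMD8, CTBP1 and TIAL1. Adjusted p-values of these 15 genes lay between 0.712 and 0.954 in edgeR, so none is told apart from the spread between replicates.

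No list of genes outside the KCNH family, whether of the translation machinery, the erythroid lineage or housekeeping, gave a called member. Over the 426 listed genes outside the KCNH family that were tested, edgeR and DESeq2 called 0, and 32 (7.51%) had an unadjusted p under 0.05 against 5.08% of all genes. Groups were separate upward in 19.7% and downward in 19.0%, against 17.9% and 17.3% of all genes. The median log2 fold change was 0.0024.

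The ribosomal proteins, the protein part of the ribosome, were nearly level. Of 47 large-subunit genes, 23 had a positive and 24 a negative fold change with a median of -0.00073, and of 32 small-subunit genes 14 were positive with a median of -0.0118. RPL4 was at 3809 and 3745 CPM undepleted and at 3772 and 3749 CPM with FastSelect. RPS18 was at 3860 and 3994 against 3920 and 3843 CPM. At these levels the standard error of the log2 fold change was 0.027 to 0.028. The 78 mitochondrial ribosomal proteins had a median of 0.0247.

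Erythroid genes, which mark the lineage K562 resembles, also stayed close. The fetal globin HBG2 was at 4145 and 3923 CPM undepleted and at 4182 and 4183 CPM with FastSelect, and its near-identical neighbour HBG1 at 3947 and 3848 against 4011 and 4133 CPM. Reads of that pair may be split between them by the counting. Both lay slightly higher with FastSelect, by 0.05 ± 0.028 and 0.06 ± 0.028 (SE) on the log2 scale, with an adjusted p of 0.954 each. GATA1, the main erythroid transcription factor, was at 408.6 and 409.0 CPM against 400.3 and 393.2 CPM. The transferrin receptor TFRC was at 1177 and 1153 against 1228 and 1220 CPM, a difference of 0.07 ± 0.039 that did not pass. UROD, an enzyme of haem synthesis, was at 527.5 and 490.4 against 563.5 and 550.9 CPM. Medians were 0.0056 over 9 globins, 0.032 over 9 haem enzymes, -0.036 over 12 erythroid transcription factors, -0.0422 over 14 red cell membrane genes and 0.0697 over 9 genes of iron handling.

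Among the other groups, EEF1A1, the elongation factor that brings tRNA to the ribosome, was at 18320 and 18570 CPM undepleted and at 18500 and 18410 CPM with FastSelect, a log2 fold change of -0.00015 ± 0.0215 (SE). HSP90AB1, a cytosolic chaperone, was at 5873 and 5898 against 5918 and 5910 CPM. The glycolytic enzyme GAPDH was at 4909 and 5114 against 4937 and 5005 CPM. Medians were -0.0111 over 31 initiation factors, 0.0198 over 20 aminoacyl-tRNA synthetases, 0.0032 over 31 proteasome subunits, 0.0073 over 24 chaperones and -0.0186 over 15 glycolytic enzymes. Over 70 rows of replication-dependent histone genes, whose members are alike and may share reads (HIST1H3D has 2 rows, for 2 transcripts), the median was 0.0084. The linker histone HIST1H1E was at 2337 and 2358 CPM against 2201 and 2129 CPM, a log2 fold change of -0.12 ± 0.032 with an adjusted p of 0.712. Without FastSelect replicate 1 it was -0.15, with an adjusted p of 0.0185.

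**Figure D4:**
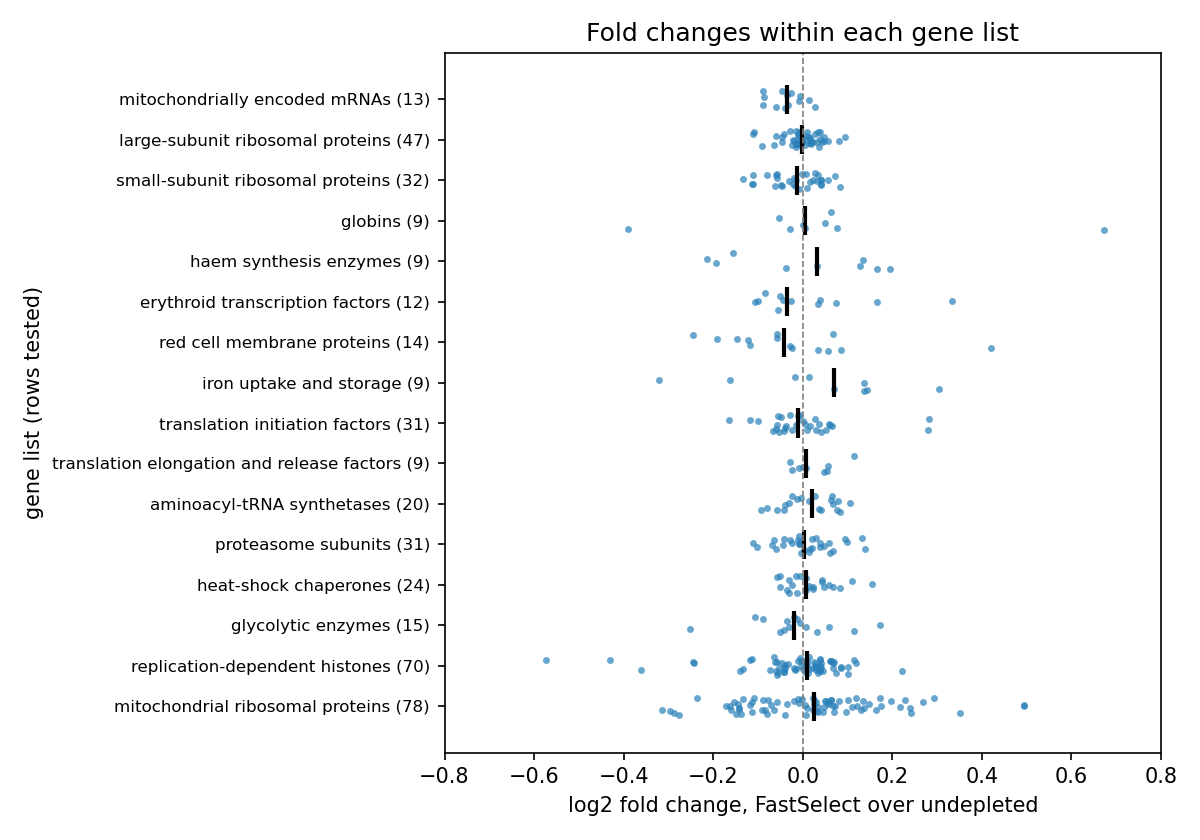
Log2 fold change of FastSelect over undepleted for the tested members of 16 gene lists, with the number of rows tested in parentheses. Points are rows of the table, spread vertically for legibility, and black bars are medians, which lie between -0.0422 and 0.0697; no row shown passed an adjusted p of 0.05.

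The 13 mRNAs of the mitochondrial genome are translated by ribosomes of their own, whose rRNAs differ from those of the cytosol. They code for subunits of the respiratory chain and of the ATP synthase. Their summed level was 18680 and 19108 CPM in the undepleted libraries and 19139 and 17628 CPM in the FastSelect libraries, so FastSelect replicate 2 was the lowest of the 4 and replicate 1 the highest. edgeR and DESeq2 called none of the 13, against 0.0222% of all genes in edgeR, and 1 had an unadjusted p under 0.05, against 5.08% of all genes. Of their fold changes 11 were negative, against 49.4% of all genes, with a median of -0.0348. That direction rested on 1 library: the median was -0.102 without FastSelect replicate 1, where MT-CYB and MT-ND5 passed the test, and 0.0246 without FastSelect replicate 2, where 2 were negative.

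The mitochondrial mRNAs separated FastSelect from both riboPools groups. Summed levels were 20359 and 21805 CPM with riboPools and 22800 and 22193 CPM with cold elution. Against riboPools, FastSelect gave 12 called genes of 9522 tested (0.126%), 1 higher (0.0105%) and 11 lower (0.116%). The higher one was KCNH8. Of the 11 lower genes, 10 were mitochondrial mRNAs and the other was YDJC, which encodes a predicted carbohydrate deacetylase. All 13 mitochondrial mRNAs had negative fold changes, as had 49.3% of all genes tested, with a median of -0.187 against 0.0017 over all genes. The list was chosen with earlier results of these data known.

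MT-CO1, a catalytic subunit of cytochrome c oxidase and the most abundant of them, was at 3382 and 3453 CPM undepleted and at 3464 and 3194 CPM with FastSelect. With riboPools it was at 3778 and 4065 CPM and with cold elution at 4201 and 4127 CPM. FastSelect and undepleted values overlapped, and both riboPools groups lay above them. The log2 fold change of FastSelect was -0.04 ± 0.031 (SE) against undepleted, -0.24 ± 0.022 against riboPools and -0.32 ± 0.022 against cold elution, with adjusted p-values of 0.972, 1.31e-22 and 2.69e-45 in edgeR. MT-ND5, a subunit of respiratory complex I, was at 2016 and 2088 CPM undepleted and 2018 and 1847 with FastSelect. It was at 2156 and 2377 with riboPools and 2443 and 2367 with cold elution. MT-ND6, the least abundant, was at 187.6 and 215.1 CPM undepleted and 211.9 and 195.1 with FastSelect, and its difference from riboPools, -0.13 ± 0.063, did not pass. MT-ND1 (-0.14, adjusted p 0.608) and MT-ND3 (-0.14, adjusted p 0.0802) did not pass either.

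These calls depended on the test. DESeq2 called 1 of the 13 against riboPools, and edgeR called 4 without riboPools replicate 2 and 6 without FastSelect replicate 2. All 13 remained negative in each of the 11 other settings tried.

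**Figure D5:**
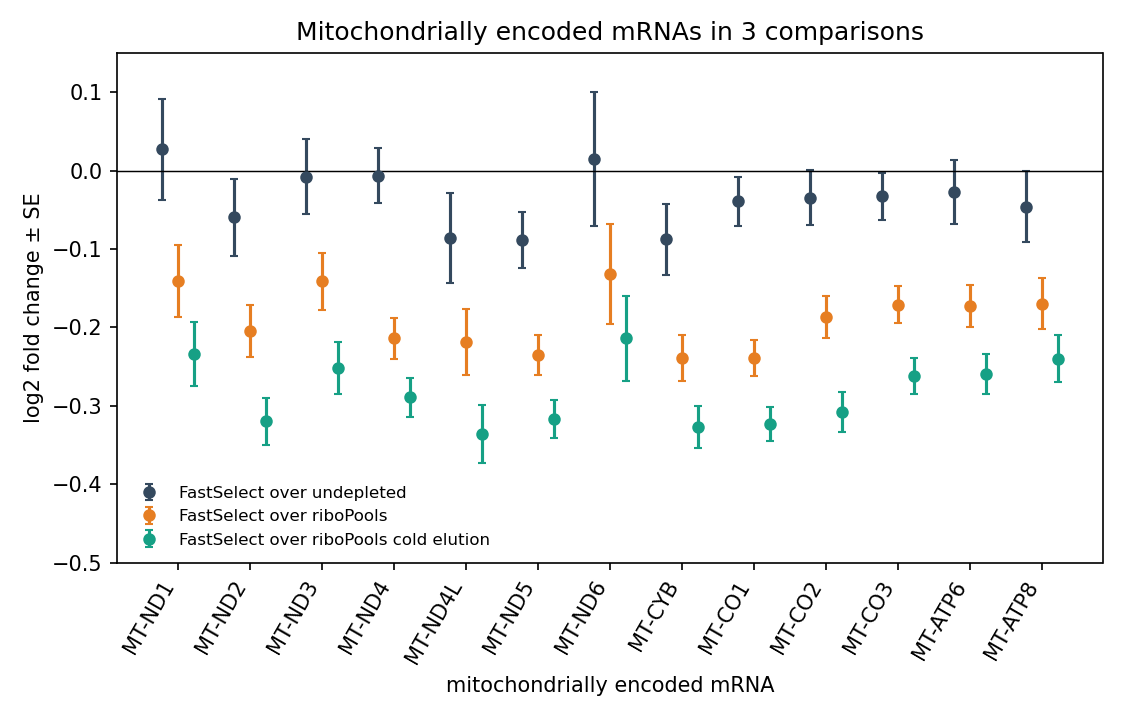
Log2 fold change ± SE of the 13 mitochondrially encoded mRNAs for FastSelect over undepleted, over riboPools and over riboPools with cold elution. The FastSelect libraries are common to the 3 comparisons; medians were -0.0348, -0.187 and -0.289.

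Against riboPools with cold elution, FastSelect gave 34 called genes of 10063 (0.338%), 16 higher (0.159%) and 18 lower (0.179%). All 13 mitochondrial mRNAs were among the lower ones, with a median of -0.289, where 49.7% of all genes had a negative fold change. Without the filter on low counts 7 of the 13 were called, and DESeq2 called 9. MT-ND6 lost its call in both of these settings and without any 1 of the 4 libraries. Without FastSelect replicate 2 the median was -0.22, and MT-ND1, MT-ND3 and MT-ATP8 lost their calls too. The other 5 lower genes were YDJC, TRMT13, a tRNA methyltransferase, RPS19, the histone variant gene H3F3A and AP000350.4. Next to KCNH8, the higher genes included 4 ribosomal proteins of the large subunit (RPL19, RPL28, RPL31 and RPL37A). They also included PTMA and PTMS, which encode small acidic nuclear proteins, the chromatin protein gene HMGN2, and CYCS, the gene of cytochrome c. These genes were named after their values had been seen. Most of these calls were not firm. RPL31, RPL37A, CYCS, RPS19, H3F3A and YDJC lost theirs with DESeq2, with no filter and without any 1 of the 4 libraries, and RPL28, PTMS and HMGN2 lost theirs with no filter and without at least 1 library. TRMT13 and AP000350.4 lost theirs with no filter and without any 1 of the 4 libraries.

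PTMA was at 640.5 and 626.4 CPM with FastSelect against 556.7 and 553.3 with cold elution, a log2 fold change of 0.19 ± 0.036 (SE) and an adjusted p of 5.89e-05 in edgeR. In the undepleted libraries it was at 624.4 and 671.6 CPM and in riboPools at 687.6 and 681.5. FastSelect and undepleted values overlapped for PTMA. Its call was lost with no filter, without either FastSelect replicate and without cold elution replicate 2, at adjusted p-values between 0.0524 and 0.19. RPL19 was at 2516 and 2432 CPM with FastSelect, 2259 and 2274 with cold elution and 2551 and 2556 undepleted. It exceeded cold elution by 0.13 ± 0.024 and lay 0.05 below undepleted, where it did not pass (-0.05 ± 0.031, adjusted p 0.972). The call of RPL19 against cold elution was lost with no filter, without FastSelect replicate 1 and without either cold elution replicate (adjusted p 0.0929 to 0.365). STAT6, a cytokine-activated transcription factor, was at 21.9 and 26.8 CPM with FastSelect, 13.5 and 17.3 with cold elution and 18.5 and 16.5 undepleted. Its call was lost with no filter, without either FastSelect replicate and without cold elution replicate 1 (adjusted p 0.0932 to 0.973).

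Among the undepleted, FastSelect and both riboPools groups, some genes with few counts were, as KCNH8 was, highest with FastSelect and next highest with riboPools. They were picked from the genes called higher with FastSelect than with cold elution, so a high FastSelect level is partly given by that choice. BCL9L, a coactivator of Wnt signalling, was at 23.1 and 27.1 CPM with FastSelect and 17.45 and 19.07 with riboPools. That difference, 0.46 ± 0.20 on the log2 scale, did not pass in edgeR (adjusted p 0.868). BCL9L was at 12.8 and 13.1 CPM with cold elution and 12.3 and 17.4 undepleted. It exceeded cold elution by 0.96 ± 0.18 on the log2 scale (adjusted p 3.09e-05), and its difference from undepleted, 0.77 ± 0.27, did not pass (adjusted p 0.954). Its call against cold elution was lost with no filter and without FastSelect replicate 2 (adjusted p 0.168 and 0.35). NPDC1, a neural membrane protein gene, was counted 19 and 27 times with FastSelect, 10 and 7 times with cold elution and 2 and 2 times undepleted. It was at 7.58 and 9.27 CPM with FastSelect and 5.67 and 3.75 with riboPools, which did not pass in edgeR (adjusted p 0.868). It was called higher than cold elution by 2.51 ± 0.40, a call lost with no filter (adjusted p 0.0573), and against undepleted it had an adjusted p of 0.712 in edgeR, with the undepleted counts too low for a firm ratio.

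YDJC passed the test in both kit comparisons, but in neither once any 1 of the 4 libraries was left out. It was at 176.4 and 181.0 CPM with FastSelect, 219.5 and 212.9 with riboPools and 212.6 and 204.3 with cold elution. The log2 fold changes were -0.27 ± 0.066 and -0.22 ± 0.057 (SE), with adjusted p-values of 0.0326 and 0.039 in edgeR. Of 11 alternatives, 4 kept the call against riboPools and 5 that against cold elution, and where it was lost the adjusted p lay between 0.0624 and 1.0 and between 0.128 and 0.819. In the undepleted libraries it was at 195.5 and 191.9 CPM, above both FastSelect libraries and below the other 4, and that difference from FastSelect, -0.12 ± 0.085, did not pass.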

How the data were processed

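The authors deposited whole-number counts of reads per coding sequence, 1 transcript per row, per the file headers. The submitters' processing notes name CASAVA 1.8, STAR, GRCh38 and hg38, without their roles; read filters, duplicate handling and reads with several matches are not given in the sources used here. Reads copied by PCR are not independent molecules, so binomial intervals and limits for a count of 0 cover counting error only. Intervals of fold changes also hold a spread between libraries. edgeR estimates that spread with information from all genes, so it can be smaller than the spread of a single gene. CPM is the count over the library's coding total. The test was the quasi-likelihood test of edgeR 4.0.16 in R 4.3.3, with TMM, filterByExpr (minimum count 10) and Benjamini-Hochberg adjustment over all genes tested, at a threshold of 0.05. The 4 libraries formed 1 fit, without the Ribo-Zero Plus libraries, and each kit comparison had its own. Standard errors were derived as the size of the log2 fold change divided by the square root of F. DESeq2 1.42.0 was an alternative. The procedure was tested on simulated data. Coding sequences come from GENCODE 29 (97.28% of 19478 transcripts matched with version), which may not be the authors' annotation. Other tables and RPM values were not used here.

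Members and gene lists were chosen with earlier results of these data known. Genes named are those called against undepleted, the 8 largest rises and 8 largest falls with a mean of at least 100 counts and separate groups, and the 2 most abundant members of each list, of which the text gives some. Genes named from the riboPools comparisons, the other mitochondrial mRNAs and the paralogues were chosen after their values were seen.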

Additional observations from a re-analysis of the deposited data

Results flagged for a closer look

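KCNH8 was far above the undepleted level in the 4 Ribo-Zero Plus libraries, which entered no comparison here and have no replicate. It was at 2113 CPM (95% exact binomial interval 2048 to 2181) in the library with the kit alone, against 28.2 and 43.6 CPM in the undepleted libraries. It was at 16020 CPM (15460 to 16610) with added oligos, at 13480 CPM (12830 to 14160) with formaldehyde and at 13390 CPM (12840 to 13950) with both. In the library with oligos it was the gene with the most counts, and in those with formaldehyde it ranked 2. These 3 libraries held 184722, 116742 and 165153 counts in all.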

How the results depend on the processing

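Against undepleted, edgeR called 2 genes under TMM, DESeq2 size factors, total counts, no filter, a mean of at least 50 counts, the replicate block and an 8-library fit. DESeq2 called 1 gene, KCNH8. Leaving out each library gave 2 to 5 calls. Without FastSelect replicate 1 there were 5, adding MT-CYB, MT-ND5 and HIST1H1E, and without undepleted replicate 1 DEK (-0.43) was called in place of ABCA13 (-0.74). Against riboPools the 12 calls became 2 with DESeq2, 7 with the replicate block and 7 to 13 with 1 library left out, the 7 being without riboPools replicate 2. With the block 6 of the 13 mitochondrial mRNAs were called against riboPools, in place of 10. Against cold elution the 34 calls became 14 with DESeq2, 8 with no filter and 14 to 21 with 1 library left out, whichever it was. In the comparison with cold elution DESeq2 gave an adjusted p to only 1015 of 14624 genes. KCNH8, NPDC1, BCL9L and STAT6 were among those without one, so DESeq2 neither kept nor lost their calls. The spread between groups of 0.0713 was 0.131 over genes of at least 500 counts, 0.0417 without KCNH8 and -0.0659 by a scaled median absolute deviation, where a negative value is less than counting gives. The spread of the FastSelect replicates was then -0.0395. That of the undepleted replicates was -0.0865 by that measure and 0.0277 over genes of at least 500 counts. The cause of these changes was not tested. Same-numbered replicates did not deviate together (r = -0.0222 across 3447 genes), so the numbers were not taken to pair libraries; the block changed no other call count by over 1.5 times. The undepleted libraries, with 1135460 and 1031889 counts, limit the precision of every comparison with them.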

Other observations

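The genes of humanin-like peptides (MTRNR2L), which are nuclear copies of part of the mitochondrial 16S rRNA, made up 10 of the 14 coding sequences that share at least 18 bases with the rRNAs compared. All 11 of these genes had 0 counts in the 4 libraries. A count of 0 allows up to 2.64 and 2.91 CPM in the undepleted libraries and up to 1.20 and 1.03 CPM in the FastSelect libraries, taking 3 counts as the limit.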
